A study of Mus musculus with 2 samples.

Results

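The ISG15 conjugation pathway was described here by its 6 genes in CT26 cells, a mouse colon cancer line: Isg15, Uba7, Ube2l6, Herc6, Trim25 and Usp18. The members were named by their roles, and each was found once by its gene symbol among the 54680 loci of the expression table. Knockdown cells (CT26shSetdb1, below shSetdb1) received by lentivirus a short hairpin RNA that targets Setdb1, a gene for a histone H3 lysine methyltransferase. Control cells (CT26shCtrl, below shCtrl) were labelled wild type and received the same kind of virus with the empty vector. Whether that vector makes any hairpin is not given in the sources used here, so lowered Setdb1 and the presence of a hairpin cannot be told apart. Both cultures were grown in RPMI 1640 with serum for 6 days, and the knockdown cells are described by their label as differentiated. Each group had 1 library of total RNA. Without replicates, every difference reported here compares these 2 libraries and not the conditions.

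ISG15 is a small ubiquitin-like protein that is made in response to type I interferon and attached covalently to other proteins, a process called ISGylation. An activating enzyme (E1, encoded by Uba7), a conjugating enzyme (E2, Ube2l6) and ligases (such as Herc6 and Trim25) pass the modifier to its targets. The protease encoded by Usp18 removes it again, and the same protein also dampens signalling at the type I interferon receptor. In tumour cells, as in virus-infected cells, these genes are usually studied as part of the interferon response.

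All 6 members had more reads in shSetdb1. Together they took 4136 reads in shCtrl and 18276 in shSetdb1, which is 225 and 960 RPM (reads scaled to a common total). The read ratio of the sum, each library relative to its own total, was 4.27 with a 95% exact (Clopper-Pearson) counting interval of 4.13 to 4.42. Such intervals cover counting error only, and not the variation between cultures or library preparations. PCR copies of a molecule cannot be recognised here and are counted as separate reads, so the intervals may be too narrow. Levels are given as FPKM, fragments scaled by gene model length and sequencing depth. Log2 ratios are those of (FPKM + 1), shSetdb1 over shCtrl, and on this scale changes of weakly expressed genes appear too small.

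The libraries held 18421604 reads (shCtrl) and 19045830 reads (shSetdb1). The intervals beside the members' read ratios give the counting error at these depths and no other variation. Setdb1 was at 10.4 FPKM (1340 reads) in shCtrl and 2.47 FPKM (317 reads) in shSetdb1, 23.7% of the control level. The annotated Setdb1 gene overlaps Cers2, and the strand setting of the counting is not given in the sources used here. Of 10 markers of colon epithelium, Epcam, Cdh1 and Lgr5 had 0 reads in both libraries, which allows up to 3 reads, and only Krt18, Krt19 and Krt20 reached 1 FPKM. That list summed to 1216 reads in shCtrl and 3795 in shSetdb1, a difference in the same direction as that of the pathway genes, and its part in their values was not tested. Most of these reads were those of Krt18 (1016 and 2423) and Krt20 (183 and 1285). Krt19 had 1 and 53 reads and reached 1 FPKM only in shSetdb1. The 7 markers under 1 FPKM together had 16 and 34. In bulk RNA a change in the number of cells of a kind and a change of RNA per cell cannot be told apart. Of 5 fibroblast markers 4 reached 1 FPKM, and 2 of these were lower and 2 higher in shSetdb1. The collagen genes Col1a2 (140 and 94.1 FPKM in shCtrl and shSetdb1) and Col1a1 (32.1 and 24.0 FPKM) were lower. The receptor gene Pdgfra was at 0.501 and 1.77 FPKM, a read ratio of 3.43 (2.72 to 4.36), and Pdgfrb at 13.5 and 14.6 FPKM, with an interval of 0.971 to 1.13.

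The promoter windows of the members were read first, because all 6 genes lay higher in the same library. Promoter sequences from RefSeq (GRCm38.p6), each reaching from 250 bases before to 50 bases after a gene's start, were at hand for Isg15, Uba7, Ube2l6, Herc6 and Trim25. They were searched on both strands for GAAANNGAAA, the core of the interferon-stimulated response element, to which the factor ISGF3 and interferon regulatory factors bind. The stretch before the start of Isg15 (chr4:156200819-156201068, minus strand) is printed whole, with the core matches in capitals.
Isg15: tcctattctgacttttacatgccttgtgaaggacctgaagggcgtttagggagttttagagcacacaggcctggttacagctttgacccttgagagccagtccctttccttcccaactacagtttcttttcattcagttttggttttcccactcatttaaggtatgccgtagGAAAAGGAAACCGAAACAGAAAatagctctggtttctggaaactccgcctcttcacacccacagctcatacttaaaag

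The window held 3 overlapping matches, GAAAAGGAAA, GAAACCGAAA and GAAACAGAAA, whose first bases lay 78, 72 and 66 bases before the start. A match was found in 1131 of all 32851 promoter windows (3.44%), and 3 or more matches in 5 windows (0.0152%), a count chosen after the Isg15 sequence was seen. Those 5 windows belonged to Isg15, Cybb, Washc3, Gm3512 and Gm33857. Washc3 was at 4.99 FPKM in shCtrl and 3.67 FPKM in shSetdb1, Cybb had 0 and 1 reads, and Gm3512 had none in either. The core was matched in none of the other 4 members' windows, and allowing 1 free base as well as 2 added no member. Only exact matches inside the windows were counted, so a site with a differing base or outside a window would be missed. The palindrome TTCNNNGAA, to which STAT dimers bind, matched in 8.30% of all windows and in none of the 5 members.

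A shorter half-site of interferon regulatory factors, AANNGAAA, was searched after these sequences had been seen. It overlaps the longer core and was found in 23.9% of all windows and in those of Isg15, Uba7 and Trim25. The 2 matches outside Isg15 are printed with the bases around them, from chr9:107975529-107975558 and chr11:88999388-88999417, both on the plus strand, and the capitals mark the half-site, which lies on the opposite strand. The first base of the match lies 27 bases before the RefSeq start of Uba7 and 4 bases before that of Trim25. Both sites fall inside the GENCODE gene models, which start further upstream, at 107975505 and 88999376.
Uba7: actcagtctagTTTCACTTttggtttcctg
Trim25: ctcctgttcagTTTCGATTccttcctcgct

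These matches are descriptions of letters in the windows, and no binding was measured.

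Isg15 (ENSMUSG00000035692) encodes the modifier itself. The gene lies on chromosome 4 between positions 156199424 and 156200818 of GRCm38, with 2 exons on the minus strand. Its level was 24.8 FPKM (351 reads) in shCtrl and 186 FPKM (2637 reads) in shSetdb1. Isg15 thus went from rank 2395 to rank 304 among all loci ordered by FPKM. The log2 ratio reached 2.86 and the read ratio 7.27 (6.50 to 8.15).

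Uba7 (ENSMUSG00000032596), the E1, was the member with the second lowest level. Its coding transcript has 24 exons on chromosome 9, from 107975505 to 107984060. The control library held 237 reads (1.89 FPKM) and shSetdb1 916 reads (7.31 FPKM). The knockdown value was higher by a log2 ratio of 1.52, with a read ratio of 3.74 (3.24 to 4.33).

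Ube2l6 (ENSMUSG00000027078), the E2, had the highest level of the 6 genes in shCtrl. It lies on chromosome 2, from 84798828 to 84810335, with 4 exons in its longest coding transcript. Its reads numbered 1373 (36.7 FPKM) in shCtrl and 5234 (140 FPKM) in shSetdb1. Its log2 ratio was 1.90, and the read ratio of 3.69 (3.47 to 3.92) lay within the interval of Uba7.

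Of the ligases, Trim25 had the higher level in both libraries. Trim25 (ENSMUSG00000000275, chromosome 11, 88999376 to 89020293) encodes a RING-type ligase that attaches both ubiquitin and ISG15. It was at 15.4 FPKM (1660 reads) in shCtrl and 45.2 FPKM (4874 reads) in shSetdb1. The log2 ratio came to 1.49 and the read ratio to 2.84 (2.69 to 3.004), the smallest of the 6.

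Herc6 (ENSMUSG00000029798, chromosome 6, 57581000 to 57664632) encodes the HECT-type ligase described as the main ISG15 ligase of mice. It had 35 reads (0.201 FPKM) in shCtrl and 114 reads (0.655 FPKM) in shSetdb1. It was the member that stayed under 1 FPKM in both. On the (FPKM + 1) scale its log2 ratio was 0.46, because the pseudocount exceeds both values. Its read ratio was 3.15 (2.14 to 4.74), an interval that holds the ratios of Uba7, Ube2l6 and Trim25. With a pseudocount of 0.1 the log2 ratio was 1.33.

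Usp18 (ENSMUSG00000030107, chromosome 6, 121245906 to 121270917) encodes the protease that removes ISG15. It showed the largest ratio of the 6 genes, from 9.18 FPKM (480 reads) in shCtrl to 86.1 FPKM (4501 reads) in shSetdb1. Its log2 ratio of 3.10 went with a read ratio of 9.07 (8.25 to 9.99), an interval above that of Isg15. Usp18 and Isg15 ranked 26 and 36 among the 10671 genes with 1 FPKM or more in at least 1 library, and Ube2l6, Uba7 and Trim25 ranked 140, 249 and 263.

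**Figure D1:**
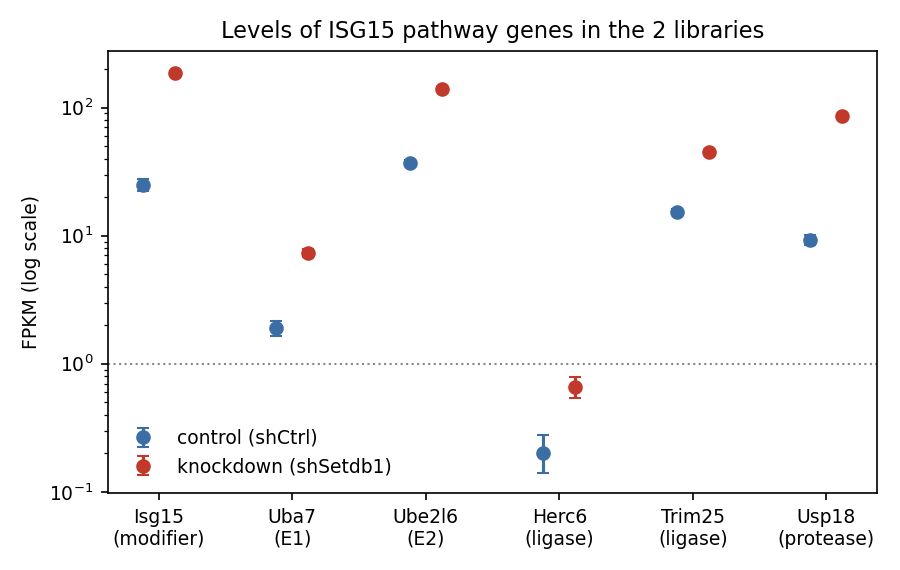
Level of each pathway gene in FPKM (log axis) in shCtrl (blue) and shSetdb1 (red), with 95% exact Poisson intervals on the reads and a dotted line at 1 FPKM. Each gene's knockdown value lies above its control value with no overlap of the intervals, and Herc6 stays below the line at 0.201 and 0.655 FPKM.

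Set against all genes, 5 of the 6 members were at least 2-fold higher on the (FPKM + 1) scale, where 727 of the 10671 genes (6.81%) were. None of the 6 was 2-fold or more lower, where 518 genes (4.85%) were. The median log2 ratio was 1.71 over the 6 members and -0.00039 over all 10671 genes. By reads, the lower bound of the interval was 2 or more for 6 of 6 members and for 805 of the 13652 genes (5.90%) with 10 or more reads in all, a rule added after the Herc6 values had been seen. No annotated gene with more than 1 read overlapped a member. Gm44148, which overlaps Usp18, had 1 read in shCtrl, and the loci that overlap Uba7 and Herc6 had none. How reads shared by overlapping genes were counted was not examined, so these counts do not show whether a member lost reads. Of 8 leukocyte markers, 5 had 0 reads in both libraries, among them Itgam and Adgre1, and the list summed to 2 reads in shCtrl and 6 in shSetdb1. The 3 endothelial markers had none.

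The order of the members by level differed between the libraries. In shCtrl it ran from Ube2l6 through Isg15, Trim25, Usp18 and Uba7 to Herc6. In shSetdb1 Isg15 was first and Ube2l6 second, and Usp18 stood above Trim25. In both libraries the counting intervals of neighbours in the order did not overlap. These intervals leave out the gene model lengths, on which an order by FPKM also depends. By RPM, which does not use length, Trim25, Ube2l6 and Usp18 stood above Isg15 in both libraries. By ratio, Usp18 and Isg15 stood apart from the rest, while the intervals of Uba7, Ube2l6 and Herc6 overlapped one another and that of Trim25 overlapped only that of Herc6.

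The make-up of the pathway's transcripts was compared per length. Isg15 made up 28.1% of the summed FPKM of the 6 genes in shCtrl and 40.0% in shSetdb1, and Usp18 10.4% and 18.5%. The share of Ube2l6 was 41.6% and 30.1%, that of Trim25 17.5% and 9.71%, and that of Uba7 2.14% and 1.57%. By FPKM the modifier's transcript therefore stood at 13.1 times the level of its E1 in shCtrl and at 25.5 times in shSetdb1. Such shares and ratios depend on the gene model lengths, 756 bases for Isg15 and 6692 for Uba7. The lengths of the transcripts present were not measured. Without length, Isg15 and Uba7 were at 19.1 and 12.9 RPM in shCtrl and at 138 and 48.1 RPM in shSetdb1. Relative to its E2 it stood at 0.675 and 1.33 times. Relative to the protease the ratio was 2.70 in shCtrl and 2.16 in shSetdb1, so Usp18 was the member whose level changed by more than that of Isg15.

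Each member was then set beside genes of the same biochemical role in other modifier systems, or of the same symbol family for Ube2l6 and Usp18. Families taken by symbol can hold genes of another role. Over all 10671 genes with 1 FPKM or more in at least 1 library, 6.81% were 2-fold or more higher and 4.85% lower. A short list with 0 genes past 2-fold therefore need not differ from all genes. Of 14 genes for ubiquitin and ubiquitin-like modifiers, 13 reached 1 FPKM and 0 of them differed by 2-fold, with a median log2 ratio of -0.16. Nedd8, which encodes a modifier of cullin ligases, was at 84.0 FPKM in shCtrl and 115 FPKM in shSetdb1 (log2 ratio 0.44), and the polyubiquitin gene Ubb was at 521 and 468 FPKM (-0.16). The interferon-gamma-linked modifier gene Ubd had 0 reads in both libraries, which allows up to 3 reads. Isg15, at 2.86, lay outside the range of the 13.

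Among 9 genes for other activating enzymes 0 differed by 2-fold, and the median was -0.0918. Uba1, the main ubiquitin E1, was at 203 FPKM in shCtrl and 279 FPKM in shSetdb1, far above Uba7 in both, and its log2 ratio of 0.46 was the highest of the 9. The lowest was that of Nae1, a subunit of the NEDD8 E1, from 1.82 to 0.983 FPKM (-0.51).

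Ube2l3, the closest relative of Ube2l6 by name and a ubiquitin E2, went the other way. It was at 40.0 FPKM (4376 reads) in shCtrl, near the 36.7 FPKM of Ube2l6, and at 22.0 FPKM (2404 reads) in shSetdb1, against 140 FPKM. Of 36 other protein-coding genes with a symbol starting in Ube2, 29 reached 1 FPKM, 0 were 2-fold higher, 1 was 2-fold lower and the median was -0.0416. Ube2t had the highest log2 ratio at 0.72. The 1 lower gene was Ube2cbp, from 2.48 to 0.626 FPKM (-1.10), which was listed by its symbol and not by its role.

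The other HERC genes and Arih1, a ligase also reported to act with ISG15, were lower in shSetdb1 where they reached 1 FPKM. Arih1 was at 7.83 FPKM (1130 reads) in shCtrl and 3.57 FPKM (516 reads) in shSetdb1, a log2 ratio of -0.95. Herc2 had a log2 ratio of -0.69, and Herc4 and Herc1 each had -0.19. Herc3 had 2 reads in shCtrl and 9 in shSetdb1, a read ratio of 4.35 with an interval of 0.901 to 41.4.

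Among 55 other protein-coding genes named Usp and a number, 38 reached 1 FPKM. Their median log2 ratio was -0.16. Only Usp35 was 2-fold higher, from 1.34 to 3.89 FPKM (1.06), with a read ratio of 2.80 (2.29 to 3.44) that overlapped the interval of Trim25, and none was 2-fold lower, the lowest being Usp39 at -0.79. Of 6 proteases reported to cut ISG15 besides Usp18, the 3 that reached 1 FPKM were Usp5 (log2 ratio 0.32), Usp21 (-0.0419) and Usp14 (-0.23). Usp2, Usp13 and Usp16 stayed under 1 FPKM.

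**Figure D2:**
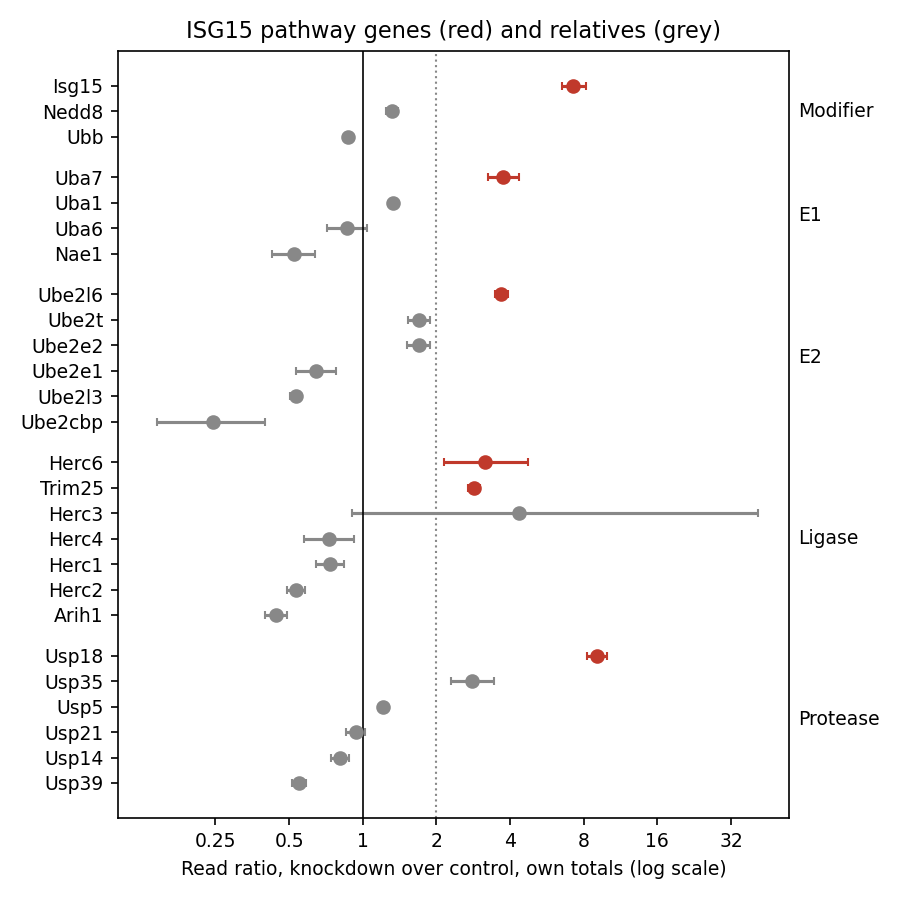
Read ratio of each gene, knockdown over control and relative to the libraries' own totals (log axis), with 95% exact counting intervals. The 6 pathway genes (red) lie between 2.84 and 9.07, and the relatives shown (grey) between 0.245 for Ube2cbp and 4.35 for Herc3, which had 2 and 9 reads. Ube2cbp stands in the E2 group by its symbol alone. The intervals of Herc3 and Usp35 (2.80) overlap those of pathway genes.

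Genes that act with members outside conjugation were taken from lists. USP18 binds the receptor chain IFNAR2 together with STAT2. Of 8 genes for receptor signalling and Usp18 partners, 2 were at least 2-fold higher in shSetdb1 and 0 were 2-fold lower, with a median of 0.39. Over all 10671 genes these shares were 6.81% and 4.85%. Stat2 had 578 reads (5.21 FPKM) in shCtrl and 3051 (27.5 FPKM) in shSetdb1, a log2 ratio of 2.20. Irf9, the DNA-binding subunit of ISGF3, was at 6.34 and 26.0 FPKM, with 1.88. The receptor genes were less different, with Ifnar2 at 7.12 and 7.57 FPKM (0.0776) and Ifnar1 at 8.36 and 9.82 FPKM (0.21). The lowest of the list was the receptor kinase gene Jak1 at -0.35.

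TRIM25 also acts in RNA sensing, and the 5 genes listed as its partners there had a median of 0.55. Ddx58, the gene for the RNA sensor RIG-I, was at 3.35 FPKM (443 reads) in shCtrl and 13.5 FPKM (1783 reads) in shSetdb1, a log2 ratio of 1.74. Ifih1, which encodes the sensor MDA5, had 0.71 and Rnf135, a ligase acting on RIG-I, 0.55. Mavs, the adaptor of both sensors, had -0.11, and Zc3hav1, which encodes the antiviral protein ZAP, had -0.53, from 21.5 to 14.6 FPKM.

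Of 24 genes whose proteins have been reported as targets of ISG15, 22 reached 1 FPKM. Among these, 4 were at least 2-fold higher, 0 were 2-fold lower and the median was 0.27. The shares over all 10671 genes were 6.81% higher and 4.85% lower. Ddx58 was the highest and the oxygen-regulated factor gene Hif1a the lowest, from 6.09 to 3.78 FPKM (-0.57). The other 3 past 2-fold, named after their values were seen, were Adar, an RNA-editing enzyme (1.33), Eif2ak2, the kinase PKR (1.12), and Tmem173, the adaptor STING (1.003). Mx1, under 1 FPKM, had 2 reads in shCtrl and 50 in shSetdb1, a read ratio of 24.2 (6.35 to 205). Modified proteins were not measured in these libraries. Of the 2 chains of the integrin that binds free ISG15 outside cells, Itgb2 was at 2.50 and 3.08 FPKM and Itgal had 4 and 0 reads.

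**Figure D3:**
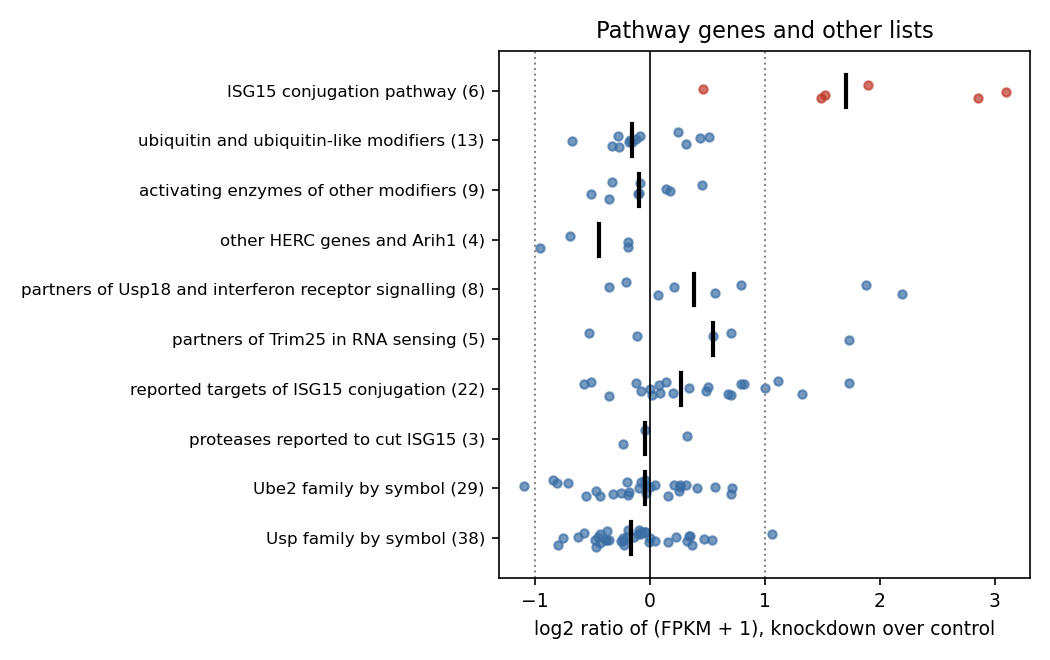
Log2 ratio of (FPKM + 1), knockdown over control, for the 6 pathway genes (red) and for the genes of 9 lists with 1 FPKM or more in at least 1 library (blue), with the number of genes in brackets, medians as black bars and dotted lines at 2-fold. The pathway median is 1.71, and the list medians run from -0.44 to 0.55.

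The members lie at 6 places on 5 chromosomes, so the genes beside them were compared as well. The nearest protein-coding gene with 1 FPKM or more was taken on each side, and 9 of the 12 lay within 100 kb of the member. Of these 9, Serping1, AW011738 and Inka1 reached 1 FPKM only in shSetdb1, so the filter itself favoured a higher value there for these 3. Among the 6 that reached 1 FPKM in both libraries, 4 were higher and 2 lower in shSetdb1, where 49.5% of the 9429 genes with 1 FPKM in both were higher. Only Agrn of the 6 was 2-fold higher on the (FPKM + 1) scale, where 5.47% of those genes were, and the intervals of 2 of the 6, Traip and Pyurf, held 1. Agrn, the gene for the matrix protein agrin, lies 1.94 kb from Isg15 and had 1676 and 3584 reads in shCtrl and shSetdb1, a read ratio of 2.07 (1.95 to 2.19). AW011738, 2.48 kb away on the other side, had 26 and 82 reads, a ratio of 3.05 (1.94 to 4.94).

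Next to Ube2l6 the 2 neighbours differed in direction. Serping1, which encodes the C1 inhibitor of complement, lies 23.4 kb before it and had 5 reads in shCtrl and 78 in shSetdb1, a ratio of 15.1 (6.20 to 47.8). Timm10, a mitochondrial import gene 16.7 kb after it, had 604 and 396 reads, a ratio of 0.634 (0.557 to 0.721). Around Uba7, Traip had a ratio of 1.10 (0.987 to 1.23) and Inka1, 0.162 kb from the end of Uba7, went from 13 to 35 reads. The neighbours of Herc6, Trim25 and Usp18 within 100 kb were Pyurf (0.950), Coil (1.58) and Pex26 (1.25), all with smaller read ratios than the member beside them.

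**Figure D4:**
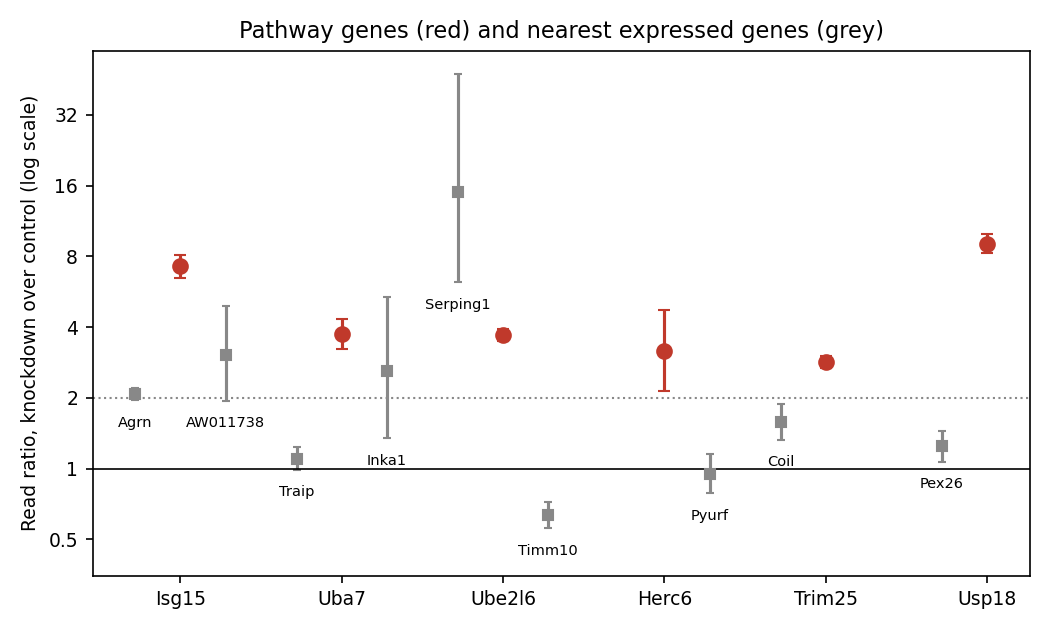
Read ratio, knockdown over control (log axis), of each pathway gene (red circles) and of its nearest protein-coding neighbours with 1 FPKM or more within 100 kb (grey squares), with 95% exact counting intervals. Serping1 beside Ube2l6 has a ratio of 15.1 but, like AW011738 and Inka1, reached 1 FPKM only in the knockdown library, and Timm10 (0.634) and Pyurf (0.950) lie below 1.

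The protein-coding gene whose pattern was most like that of each member was found by the Euclidean distance of log2(FPKM + 1) over the 2 libraries. Oas1a was nearest to Isg15, at 23.0 and 173 FPKM (distance 0.146). Cd68 was nearest to Usp18, at 10.4 and 100.2 FPKM (0.271). The leukocyte markers above summed to 2 reads in shCtrl and 6 in shSetdb1, and the source of the Cd68 reads was not tested. The nearest genes to Ube2l6, Trim25, Uba7 and Herc6 were Hilpda (0.0577), Wbp1 (0.0892), Cnp (0.0373) and Msh5 (0.0284). With 2 libraries such a likeness rests on 2 values per gene.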

How the data were processed

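RNA sequencing libraries were made from total RNA (TRIzol) with a NEBNext Ultra kit, per the labels' protocols. The submitters' processing notes name CASAVA, HISAT2, featureCounts 1.5.0-p3 and GRCm38. The authors deposited FPKM values per gene, per the file headers. FPKM times gene length gave whole reads, within 1e-06 of a read, for 100% of the values above 0, and both libraries had been scaled by 1 depth of 18731117 reads, so log2 ratios carry the 1.03 ratio of the totals. Read ratios use the libraries' own totals and 95% exact intervals. The pseudocount was 1, genes counted as expressed reached 1 FPKM in either library, and the threshold was 2-fold. With 1 library per group no test was run between conditions.

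Members, lists and markers were chosen with earlier results of these data known. Named genes were the 6 members, Setdb1, the highest and lowest of each list (whole lists where 6 or fewer genes were expressed) and each member's nearest gene by pattern; others, and the flanking genes, were chosen after values were seen. Some genes that the rule names are not reported here, and Nedd8 and Ubb were chosen after their values were seen. Relatives in the plot of read ratios were chosen by role or by symbol, and Ube2t, Ube2cbp, Herc3, Usp35 and Usp39 after their values were seen. All 6 gene positions equalled those of GENCODE M21. Protein sequences were not used here. Calculations ran in scipy 1.17.1, pandas 2.3.3 and numpy 2.4.6 under Python 3.11.15, with plots from matplotlib 3.10.9. The calculations were tested on simulated data.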

Additional observations from a re-analysis of the deposited data

How the results depend on the processing

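The log2 ratio of every member stayed above 0 under each scaling tried, and no result changed direction. A change of pseudocount alone cannot change the sign of a gene's log2 ratio. With a pseudocount of 0.1 the median of the members was 1.91, 6 of 6 passed 2-fold and 10.6% of all genes did. The median was 1.89 as a mean and 1.90 with a filter at 5 FPKM, which leaves out Herc6. At 1.5-fold 16.9% of all genes passed, and at 4-fold 2 members (Isg15 and Usp18) and 1.09% of all genes, as those thresholds make them. Without a filter on low values 1.33% of all loci passed, and the median of the other HERC genes and Arih1 was -0.19. The half-site in place of the core, chosen after seeing the data, was found for 3 members in place of 1. The upper quartile was the scaling that moved the median of all genes most, to -0.0749. Of 33 alternative values of single genes and of level ratios, 28 stayed within counting error. Among these 28, the level ratios recomputed without gene length could not change, because length and totals cancel in them. A comparison of proteins was planned and could not be made without their sequences. Depth limits Herc6 most, with 35 reads in shCtrl. Leaving out a library was impossible with 1 per group.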
